A study of Mus musculus with 39 samples.

Results

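Hmgcs1, Sqle, Srebf2 and Insig1, genes of cholesterol synthesis and of its control, were read out by symbol from a deposited table of microglial gene expression, and these 4 genes were 4 of its 10915 entries. Cells make cholesterol from acetyl-CoA through the mevalonate pathway, in which the cytosolic HMG-CoA synthase Hmgcs1 acts near the start, and the squalene epoxidase Sqle carries out the first oxygen-dependent step towards sterols. Srebf2 encodes SREBP2, the transcription factor that drives these enzymes. When membrane sterols are low, Scap escorts SREBP2 from the endoplasmic reticulum to the Golgi for cleavage, and when they are high, Insig1 and its relative Insig2 hold the Scap complex back. Insig1, Hmgcs1, Sqle and Srebf2 itself are all known SREBP2 targets. In the brain, cholesterol is made locally, largely by astrocytes and oligodendrocytes, and microglia handle much of it when they take up myelin and cell debris.

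The libraries came from microglia, the resident macrophages of the brain, sorted at 10000 cells per library from female C57BL/6J mice killed at 9 months of age. APP23 mice were hemizygous for human APP with the KM670/671NL mutation, driven by the Thy-1 promoter, which is used to direct transgenes to neurons. Wildtype littermates carried no transgene. At 3 months each animal received 1 intraperitoneal injection daily for 4 days. These were vehicle alone (PBS groups), bacterial lipopolysaccharide (LPS) on the first day and then 3 times vehicle (1xLPS groups), or LPS each time (4xLPS groups), at 500 µg/kg per LPS dose. The 39 libraries were 6 APP23 PBS, 5 APP23 1xLPS, 4 APP23 4xLPS, 9 wildtype PBS, 9 wildtype 1xLPS and 6 wildtype 4xLPS. The labels do not state that each library was a separate mouse, so the p-values describe variation among libraries, some of which may be technical.

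Values are the authors' normalized, surrogate-variable-corrected log expression, taken as log2, and sequencing depth is unknown. Library means were 9.00 to 9.01 and within-group correlations 0.999158 to 0.99965, and the libraries' residuals around the 6 group means spanned 24 directions where 33 were free, so 9 had been removed from the table. Genes are called here at an adjusted p under 0.05 in limma over all 10915 entries with 33 residual degrees of freedom, and the adjusted p with 24 is given with each call (as "with 24"). The 33 count the 9 removed directions as free, so standard errors, intervals and p-values with 33 are likely too small. With 24 degrees of freedom none of the 4 genes was called in any of the 11 contrasts. The share of all entries called with 24 was then 0.440% for wildtype 1xLPS against PBS, 1.51% for wildtype 4xLPS against PBS and 0.0183% for wildtype 4xLPS against 1xLPS, and 0 in the 3 comparisons within APP23 mice. It was 2.51% for APP23 against wildtype with PBS, 0.330% with 1xLPS and 0 with 4xLPS, and 0.0366% and 0.522% for the differences of responses to 1xLPS and 4xLPS. All 11 microglial markers were measured, and their mean level ran from 12.34 to 12.49 over the libraries. In bulk libraries, fewer cells expressing a gene and less of its RNA per cell cannot be told apart.

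The promoters of 3 of the genes are shown because SREBP2 acts through short sterol regulatory elements and nearby CCAAT and GC boxes. They are RefSeq sequences of GRCm38.p6, plus strand, from up to 250 bases before the RefSeq start and ending before the first base that either RefSeq or GENCODE annotates as transcribed. They lie at chr13:119690101-119690350 for Hmgcs1, chr15:82147019-82147180 for Srebf2 and chr5:28071162-28071362 for Insig1. Capitals mark the motifs searched on both strands, which were the sterol regulatory element core CACCCCA, the E-box CACGTG, the CCAAT box, which reads ATTGG on the opposite strand, and the GC box GGGCGG, whose opposite strand reads CCGCCC.
Hmgcs1: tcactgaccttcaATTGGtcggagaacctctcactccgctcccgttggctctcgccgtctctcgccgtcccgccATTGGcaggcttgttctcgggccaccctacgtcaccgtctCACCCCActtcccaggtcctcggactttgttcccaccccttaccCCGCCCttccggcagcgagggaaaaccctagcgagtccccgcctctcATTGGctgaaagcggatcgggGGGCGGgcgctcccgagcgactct
Srebf2: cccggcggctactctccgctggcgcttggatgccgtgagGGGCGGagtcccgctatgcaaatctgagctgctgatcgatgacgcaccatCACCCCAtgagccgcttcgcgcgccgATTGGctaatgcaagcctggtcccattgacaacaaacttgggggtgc
Insig1: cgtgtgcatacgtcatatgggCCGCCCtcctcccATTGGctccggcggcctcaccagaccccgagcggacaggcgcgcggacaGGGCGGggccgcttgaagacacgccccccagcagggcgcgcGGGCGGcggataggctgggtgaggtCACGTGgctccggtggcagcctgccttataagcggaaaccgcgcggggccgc
The sterol element core stood at -136 to -130 from the RefSeq start in Hmgcs1 and at -161 to -155 in Srebf2, and in both a CCAAT box stood within the same window. Its letters were not in the Insig1 window, which held an E-box at -101 to -96 and 1 CCAAT box. The core occurred in 6.68% of 32851 RefSeq promoter windows of 250 bases and in 6.72% of the 10877 windows of genes measured here, and core and CCAAT box together in 2.04% and 2.11%. Over all windows the E-box was found in 6.02%, the CCAAT box in 33.8% and the GC box in 32.7%. Among the windows of measured genes these shares were 8.58%, 35% and 57.6%. Of 17 windows of 14 measured sterol synthesis enzymes, 11.8% held the core, 17.6% the E-box, 76.5% a CCAAT box and 82.4% a GC box. These matches describe the letters and are not evidence of binding.

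All 4 genes are protein-coding and on the plus strand in GENCODE M21 (GRCm38). Hmgcs1 lies on chromosome 13 (119690379 to 119708260), Sqle on chromosome 15 (59315077 to 59331192), Srebf2 on the same chromosome (82147181 to 82205379) and Insig1 on chromosome 5 (28071363 to 28078662). Levels of different genes are not read as relative amounts of RNA, because the table is not stated to be scaled by gene length. By mean value Insig1 stood at percentile 8.01 of all entries, Sqle at 10.2, Srebf2 at 52.5 and Hmgcs1 at 62.5.

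Of the 4 genes, Hmgcs1 differed most among the groups. In APP23 PBS libraries its log2 level was 9.65 at the lowest, 9.70 at the median and 9.74 at the highest, with a mean of 9.69 ± 0.031 (SD, n = 6). The 5 APP23 1xLPS libraries had 9.73, 9.75, 9.70, 9.70 and 9.72, and the 4 APP23 4xLPS libraries had 9.80, 9.70, 9.74 and 9.79, with means of 9.72 ± 0.023 and 9.76 ± 0.046. Among APP23 mice the group means thus stood higher with more LPS injections, but the libraries overlapped. In wildtype PBS libraries the lowest, median and highest levels were 9.69, 9.78 and 9.87, and the mean was 9.77 ± 0.061 (n = 9). Wildtype 1xLPS libraries had 9.62, 9.66 and 9.77 with a mean of 9.69 ± 0.062 (n = 9), and wildtype 4xLPS libraries had 9.59, 9.66 and 9.72 with a mean of 9.67 ± 0.044 (n = 6). Among wildtype mice the order ran the other way, with PBS highest, and again the ranges overlapped.

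For Sqle, APP23 PBS libraries had 6.57, 6.67 and 6.74 as lowest, median and highest log2 level, with a mean of 6.67 ± 0.056 (n = 6). APP23 1xLPS libraries had 6.78, 6.75, 6.71, 6.67 and 6.72, a mean of 6.73 ± 0.040, and APP23 4xLPS libraries had 6.75, 6.82, 6.71 and 6.74, a mean of 6.76 ± 0.047. All 5 and all 4 of these LPS libraries stood above the APP23 PBS mean, although the ranges overlapped. Wildtype PBS libraries ran over 6.69, 6.71 and 6.79 (mean 6.73 ± 0.038, n = 9), wildtype 1xLPS libraries over 6.64, 6.69 and 6.77 (6.69 ± 0.050, n = 9) and wildtype 4xLPS libraries over 6.63, 6.67 and 6.72 (6.67 ± 0.034, n = 6). As for Hmgcs1, the wildtype group means were lower with more injections and the APP23 means higher.

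Srebf2 spread most in the APP23 PBS group, where the lowest, median and highest log2 levels were 9.22, 9.32 and 9.45 and the mean 9.33 ± 0.074 (n = 6). APP23 1xLPS libraries had 9.30, 9.41, 9.31, 9.35 and 9.37 (mean 9.35 ± 0.045), and APP23 4xLPS libraries had 9.42, 9.33, 9.37 and 9.32 (mean 9.36 ± 0.044). Both LPS groups lay inside the range of APP23 PBS. In wildtype PBS libraries the values were 9.35, 9.38 and 9.45 (9.39 ± 0.029, n = 9), in wildtype 1xLPS libraries 9.30, 9.35 and 9.39 (9.35 ± 0.030, n = 9) and in wildtype 4xLPS libraries 9.25, 9.31 and 9.36 (9.31 ± 0.041, n = 6). The wildtype 4xLPS group was the lowest of the 6 by mean and wildtype PBS the highest.

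Insig1, the sterol-sensing retention protein, had similar levels in all groups, and its mean value was low, at percentile 8.01 of all entries. Its APP23 PBS libraries ran over 6.34, 6.39 and 6.42 as lowest, median and highest (n = 6). The 5 APP23 1xLPS libraries lay between 6.33 and 6.39, and the 4 APP23 4xLPS libraries between 6.32 and 6.40. Wildtype PBS libraries ran over 6.30, 6.396 and 6.43, wildtype 1xLPS libraries over 6.29, 6.34 and 6.41, and wildtype 4xLPS libraries over 6.34, 6.38 and 6.43, so every group overlapped every other. The 6 group means lay between 6.35, in wildtype 1xLPS, and 6.38, in APP23 PBS, a span of 0.037 that was below the SD within the wildtype PBS group (0.046). For each of the 4 genes, no pair of groups that were neighbours in the order of means differed by more than the larger of their SDs. Such gaps are only parts of the whole span, so they do not say whether groups farther apart differ. Over all 6 groups at once, limma's F test gave an adjusted p of 0.0140 for Hmgcs1, 0.0545 for Sqle, 0.0772 for Srebf2 and 0.458 for Insig1. Thus 1 of 4 was called, where 21.1% of all entries were called. With 24 degrees of freedom the values were 0.118, 0.237, 0.288 and 0.694, so 0 of 4 were called, and 2.13% of all entries.

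**Figure D1:**
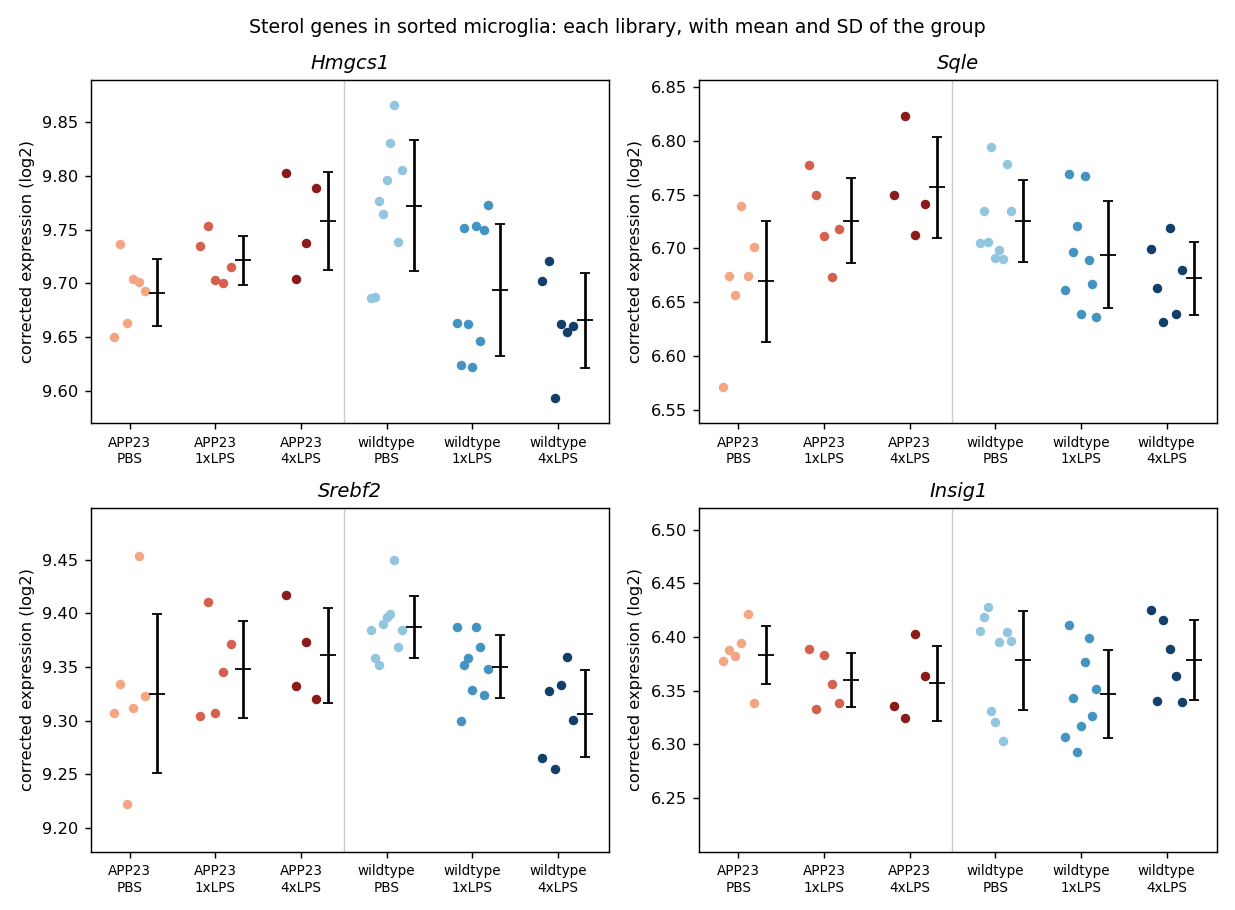
Log2 expression (vertical axis) of Hmgcs1, Sqle, Srebf2 and Insig1 in each library (points) and as group mean with SD (bars), by genotype and treatment. Hmgcs1 group means run from 9.67 in wildtype 4xLPS to 9.77 in wildtype PBS, and the libraries of all groups overlap.

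The first question of the design is whether LPS given at 3 months was still visible in wildtype microglia at 9 months. After 4xLPS, Hmgcs1 and Srebf2 fell against PBS. Hmgcs1 was 0.11 lower on the log2 scale (-0.11, SE 0.026, adjusted p = 0.00801 in limma), 0.929-fold, and stood below the PBS mean in 6 of 6 libraries. Srebf2 differed by -0.080 (SE 0.023, adjusted p = 0.0212), also below the PBS mean in 6 of 6 libraries. With 24 degrees of freedom the adjusted p-values were 0.0602 and 0.102. Sqle differed by -0.054 (adjusted p = 0.129), again below in 6 of 6 libraries, and did not pass. Insig1 differed by 0.00047 (95% interval -0.039 to 0.040). The 2 genes called of 4 compare with 8.95% of all entries called.

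The call for Hmgcs1 held when any 1 of the 39 libraries was left out. That for Srebf2 was lost without wildtype 4xLPS replicate 1 (-0.072, adjusted p = 0.0585) or replicate 3 (-0.070, adjusted p = 0.0608), the libraries with the lowest Srebf2 in that group.

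After 1xLPS in wildtype mice Hmgcs1 fell by 0.078 on the log2 scale (SE 0.023, adjusted p = 0.0356 in limma, 0.157 with 24 degrees of freedom), and 8 of 9 libraries stood below the PBS mean. That is 1 gene of 4, against 6.05% of all entries. Sqle (-0.032, adjusted p = 0.365), Srebf2 (-0.037, adjusted p = 0.283) and Insig1 (-0.031, adjusted p = 0.287) did not pass, each with 7 of 9 libraries below the PBS mean. The Hmgcs1 call was lost without 1 library in 10 of the 39 fits that left 1 out, namely wildtype 1xLPS replicate 1, 2, 4, 5 or 7 or wildtype PBS replicate 3, 5, 6, 7 or 9, with adjusted p-values up to 0.0708. It was also lost when only these 2 groups entered the fit (adjusted p = 0.0910). Between wildtype 4xLPS and 1xLPS 0 of 4 genes were called, 0 had an unadjusted p under 0.05, and 0.660% of all entries were called in limma. Srebf2 differed most there, by -0.044 (adjusted p = 0.364). The 4xLPS and 1xLPS comparisons share the same wildtype PBS libraries, so they are not independent.

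In APP23 mice none of the 4 genes was called after LPS, and 3 of 4 differences were above 0. After 4xLPS the log2 difference from APP23 PBS was 0.087 for Sqle (SE 0.028, adjusted p = 0.139 in limma), 0.067 for Hmgcs1 (SE 0.031, adjusted p = 0.348), 0.036 for Srebf2 (adjusted p = 0.616) and -0.027 for Insig1 (adjusted p = 0.668). All 4 APP23 4xLPS libraries stood above the APP23 PBS mean for Sqle and for Hmgcs1. The count was 0 of 4, with 2 at an unadjusted p under 0.05, where 0.247% of all entries were called. After 1xLPS it was likewise 0 of 4, with 1 at an unadjusted p under 0.05, against 0.715% of entries. There Sqle differed by 0.057 (adjusted p = 0.311), Hmgcs1 by 0.030 (adjusted p = 0.692), Srebf2 by 0.023 (adjusted p = 0.744) and Insig1 by -0.024 (adjusted p = 0.673). Between APP23 4xLPS and 1xLPS 0 of 4 were called in limma, 0 had an unadjusted p under 0.05, 1.48% of entries were called, and the largest difference was 0.037, in Hmgcs1 (adjusted p = 0.622).

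The next question is whether the genotypes differ at a given treatment. With vehicle alone, Hmgcs1 was lower in APP23 than in wildtype libraries. The difference was -0.081 (SE 0.026, adjusted p = 0.0368 in limma, 0.133 with 24 degrees of freedom), with 6 of 6 APP23 libraries below the wildtype mean. Srebf2 (-0.062, adjusted p = 0.0735) and Sqle (-0.056, adjusted p = 0.108) were below in 5 of 6 libraries without passing, and Insig1 differed by 0.0054 (adjusted p = 0.895). The count was 1 of 4, against 9.62% of all entries. The Hmgcs1 call was lost in 10 of 39 fits that left 1 library out (APP23 PBS replicate 1, 3, 4, 5 or 6, or wildtype PBS replicate 3, 5, 6, 7 or 9; adjusted p up to 0.0881). It was also lost with the replicate block (-0.066, adjusted p = 0.132) and with only these 2 groups in the fit (adjusted p = 0.0554). For Srebf2 a call was gained without APP23 PBS replicate 5, the library at 9.45 (-0.088, adjusted p = 0.00706).

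After 4xLPS the signs between genotypes were the opposite of those with vehicle. Hmgcs1 differed by 0.093 (adjusted p = 0.120 in limma), Sqle by 0.085 (adjusted p = 0.110) and Srebf2 by 0.054 (adjusted p = 0.337), each with 4 of 4 APP23 libraries above the wildtype mean, and Insig1 by -0.022 (adjusted p = 0.704). None of the 4 was called, 2 had an unadjusted p under 0.05, and 1.57% of entries were called. After 1xLPS the 4 differences lay between -0.0025 (Srebf2) and 0.032 (Sqle), with 0 of 4 called in limma, 0 at an unadjusted p under 0.05 and 4.34% of entries called.

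**Figure D2:**
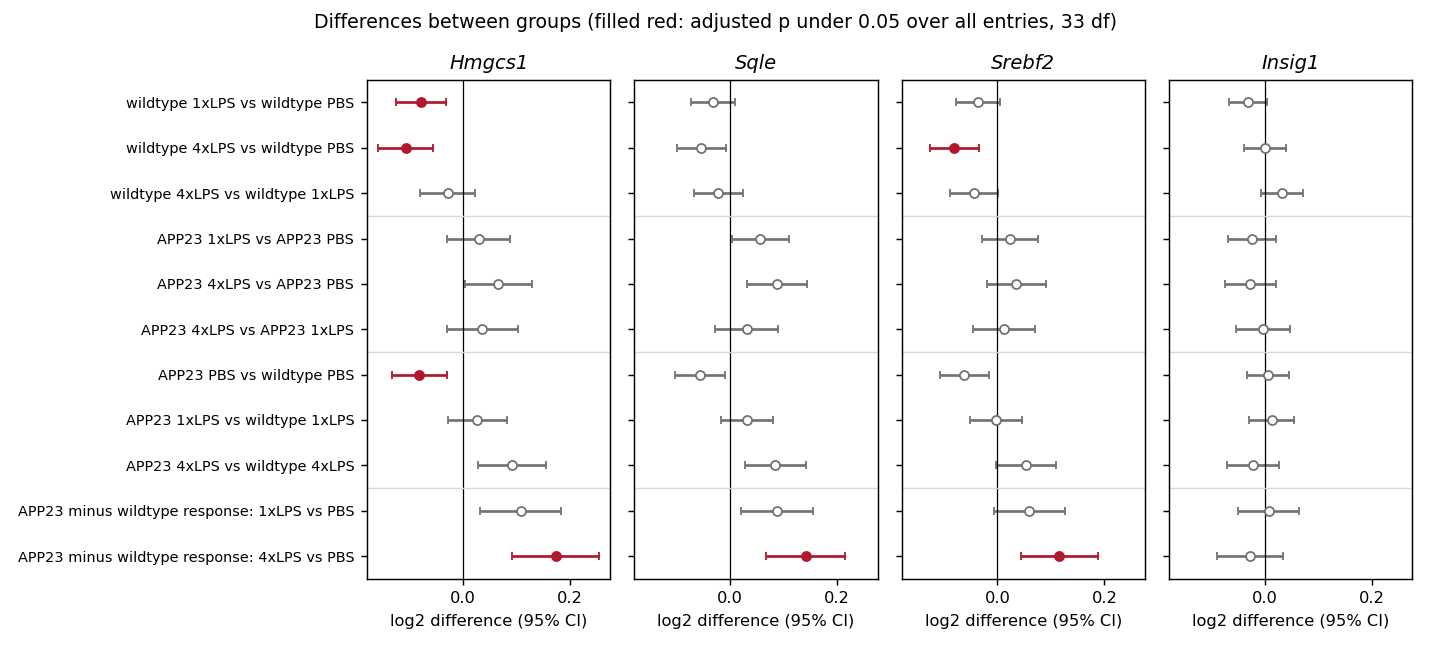
Log2 difference (horizontal axis, with 95% interval from limma with 33 degrees of freedom) of each gene in the 11 contrasts, the first-named group minus the second. Filled points mark adjusted p under 0.05; in the contrast of genotypes in the response to 4xLPS, Hmgcs1, Sqle and Srebf2 lie at 0.17, 0.14 and 0.12 and Insig1 at -0.027.

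Whether the response to LPS differs between genotypes was tested directly, as the APP23 difference minus the wildtype one. For 4xLPS against PBS, 3 of 4 genes passed, against 5.30% of all entries. Hmgcs1 had a difference of responses of 0.17 (SE 0.040, adjusted p = 0.0109 in limma), a ratio of 1.13. Sqle had 0.14 (SE 0.036, adjusted p = 0.0183) and Srebf2 0.12 (SE 0.036, adjusted p = 0.0475). In each of the 3 the response was above 0 in APP23 mice and below 0 in wildtype mice. The APP23 responses were not called, nor was the wildtype one of Sqle. Insig1 had a difference of responses of -0.027 (95% interval -0.0895 to 0.035, adjusted p = 0.656). By rank of p among all 10915 entries, Hmgcs1 was 117th, Sqle 223rd and Srebf2 561st. The contrast uses the same PBS and 4xLPS libraries as the comparisons above, so it is not independent of them.

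The 3 calls differ in how they held up. With 24 degrees of freedom the adjusted p-values were 0.0874 for Hmgcs1, 0.116 for Sqle and 0.188 for Srebf2. The Hmgcs1 call held in all 39 fits that left 1 library out. The Sqle call was lost without APP23 4xLPS replicate 2 (0.12, adjusted p = 0.0592), its highest library at 6.82. The mean value of Sqle was low, at percentile 10.2 of all entries. The Srebf2 call was lost in 26 of the 39, with estimates from 0.0955 to 0.14 and adjusted p-values from 0.00797 to 0.122, and when only the 4 groups of the contrast entered the fit (adjusted p = 0.0810). It held without APP23 PBS replicate 5, APP23 1xLPS replicate 1, 2 or 3, APP23 4xLPS replicate 4, wildtype PBS replicate 2 or 3, wildtype 1xLPS replicate 1, 2, 6 or 9, or wildtype 4xLPS replicate 4 or 5, and was lost without each of the others.

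Markers of other cells were called in this contrast as well. Of 2 measured astrocyte markers Aqp4, the astrocyte water channel, was called (0.081, adjusted p = 0.0405 in limma, 0.176 with 24). The other, Slc1a3, had a difference below 0, and the mean level of Aqp4 was low, at percentile 2.68 of all entries. Of 5 border macrophage markers Ms4a7 was called (-0.19, adjusted p = 0.0160, 0.109 with 24), but 2 of the 5 differences were above 0. By mean level Ms4a7 stood at percentile 7.70. Of all entries 5.30% were called in this contrast. The mean log2 level of the 2 astrocyte markers was 8.45 to 8.47 over APP23 4xLPS libraries, 8.41 to 8.48 over APP23 PBS, 8.40 to 8.45 over wildtype 4xLPS and 8.42 to 8.46 over wildtype PBS. The 5 border macrophage markers had means of 8.03 to 8.10 over APP23 4xLPS libraries, 8.05 to 8.17 over APP23 PBS, 8.04 to 8.19 over wildtype 4xLPS and 8.03 to 8.18 over wildtype PBS. The 4 measured of 10 oligodendrocyte markers had group means of 9.32 to 9.37, and 0 of 4 were called in any contrast in limma, with 0 to 2 at an unadjusted p under 0.05. Over the contrasts, 0.247% to 9.62% of all entries were called. Between APP23 PBS and wildtype PBS, the border macrophage marker Stab1 (0.067, adjusted p = 0.00335 in limma, 0.0336 with 24) and the monocyte receptor Ccr2 (-0.23, adjusted p = 0.00303, 0.0329 with 24) were called. They were 1 of 5 and 1 of 2 markers measured on their lists, against 9.62% of all entries. Both lists had differences of both signs, with 3 of the 5 and 1 of the 2 above 0. Mrc1, on the list of Stab1, had means of 8.60 in APP23 PBS and 8.72 in wildtype PBS. Plac8, on the list of Ccr2, differed upwards. Ms4a7 was also called between APP23 and wildtype 4xLPS libraries (-0.18, adjusted p = 0.0138 in limma, 0.157 with 24), 1 of 5 measured, against 1.57% of all entries. There 3 of the 5 differences were above 0, with a median of 0.0071. The 2 measured of 7 monocyte and neutrophil markers had a mean of 7.71 to 7.88 over APP23 PBS libraries and 7.76 to 7.96 over wildtype PBS libraries, and 0 of 6 lymphocyte markers had an entry. With 24 degrees of freedom the calls of Stab1 and Ccr2 held and those of Aqp4 and Ms4a7 were lost. The part of these cells in the results was not tested.

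For 1xLPS against PBS the differences of responses were 0.11 for Hmgcs1 (adjusted p = 0.0959 in limma), 0.088 for Sqle (adjusted p = 0.129), 0.059 for Srebf2 (adjusted p = 0.331) and 0.0075 for Insig1 (adjusted p = 0.916). None of the 4 passed, 2 had an unadjusted p under 0.05, and 3.39% of entries were called.

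Most of the other sterol synthesis enzymes were not called. Of 21 enzymes listed, 18 were measured, and the other 3 were not analysed here. In the difference of responses to 4xLPS, 2 of 18 were called, both higher, and they were Hmgcs1 and Sqle, with a median over the 18 of 0.0072 against -0.0017 over all entries. These 2 are 11.1% of the 18, against 5.30% of all entries called. Both are among the 4 genes read out above, so the share is not separate evidence, and no other enzyme was called there. Cyp51, a lanosterol demethylase (-0.12, adjusted p = 0.288 in limma), and Nsdhl, a later demethylation enzyme (-0.093, adjusted p = 0.138), had values on the other side of 0; both were chosen after their values were seen.

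In wildtype 4xLPS against PBS 1 enzyme rose and 1 fell, 11.1% of the 18 against 8.95% of all entries. Tm7sf2, a sterol reductase of the later pathway, was the one that rose (0.069, adjusted p = 0.0329 in limma, 0.133 with 24), with 7.98 ± 0.032 in wildtype 4xLPS libraries (n = 6) and 7.91 ± 0.035 in wildtype PBS libraries (n = 9), and Hmgcs1 the one that fell. Between APP23 PBS and wildtype PBS Tm7sf2 was higher too (0.068, adjusted p = 0.0338, 0.131 with 24), and Hmgcs1 and Dhcr7, the last reductase before cholesterol, were lower (Dhcr7 -0.061, adjusted p = 0.0387, 0.142 with 24). These 3 are 16.7% of the 18, against 9.62% of all entries. In the difference of responses to 1xLPS Tm7sf2 was the 1 enzyme called (-0.12, adjusted p = 0.0261, 0.156 with 24), and in wildtype 1xLPS against PBS Hmgcs1 was. Each is 5.56% of the 18, against 3.39% of all entries in the first of these contrasts and 6.05% in the second. In the other 6 contrasts 0 of 18 enzymes were called in limma, with 1 to 6 at an unadjusted p under 0.05. None of these calls on enzymes held with 24 degrees of freedom.

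**Figure D3:**
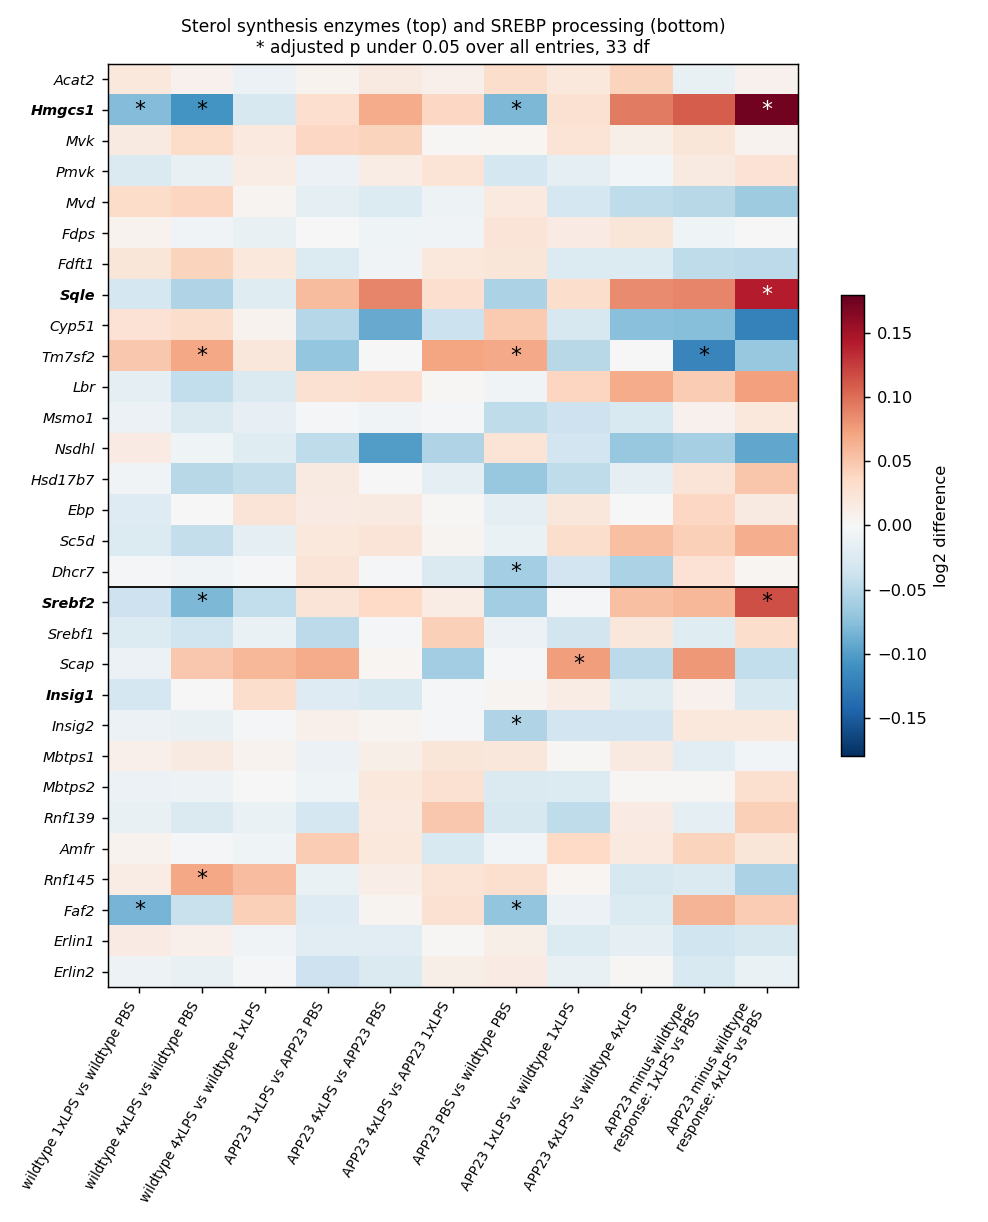
Log2 differences (colour scale) of measured sterol synthesis enzymes and SREBP control genes (vertical) in the 11 contrasts (horizontal), with stars at adjusted p under 0.05 in limma with 33 degrees of freedom. Hmgcs1, Sqle and Srebf2 are the starred genes in the contrast of genotypes in the response to 4xLPS.

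Of the 14 genes of SREBP processing and sterol sensing, all were measured. In wildtype 4xLPS against PBS, Srebf2 fell and Rnf145, a sterol-responsive ubiquitin ligase, rose (0.069, adjusted p = 0.00970 in limma, 0.0679 with 24). These 2 are 14.3% of the 14, against 8.95% of all entries called in that contrast. Scap, the SREBP escort, differed by 0.049 there without passing (adjusted p = 0.0588), and was higher in APP23 1xLPS than in wildtype 1xLPS libraries (0.076, adjusted p = 0.0106, 0.0881 with 24), at 10.23 ± 0.040 (n = 5) and 10.15 ± 0.028 (n = 9). In wildtype 1xLPS against PBS Faf2, which helps remove ubiquitinated proteins from the endoplasmic reticulum, fell (-0.084, adjusted p = 0.0109, 0.0891 with 24). The single calls of Scap and Faf2 are each 7.14% of the 14, against 4.34% and 6.05% of all entries in their contrasts.

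Insig2, the paralogue of Insig1, was lower in APP23 PBS than in wildtype PBS libraries (-0.054, adjusted p = 0.00426), and this call held with 24 degrees of freedom (adjusted p = 0.0424). In the same comparison Faf2 was lower (-0.071, adjusted p = 0.0318 in limma, 0.121 with 24). Of the 14 genes 3 were called there, 21.4%, against 9.62% of all entries. Srebf1, the gene of the fatty acid regulator SREBP1, was not called in any contrast (-0.047 to 0.043). In the difference of responses to 4xLPS the single call among the 14 was Srebf2, already reported above. It is 7.14% of the 14, against 5.30% of all entries.

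Sterol uptake, efflux and neighbouring lipid genes gave scattered calls. Mylip, a sterol-responsive ubiquitin ligase, was not called in any contrast (-0.031 to 0.032). Nceh1, a cholesteryl ester hydrolase, had 9.18 ± 0.056 in APP23 4xLPS libraries (n = 4) and 9.03 ± 0.0087 in APP23 1xLPS libraries (n = 5), a difference of 0.145 (adjusted p = 0.0151 in limma, 0.165 with 24). The astrocyte marker Aqp4 was called there too (0.088, adjusted p = 0.0166, 0.172 with 24), 1 of 2 measured, against 1.48% of all entries. The other, Slc1a3, had a difference below 0, and by mean level Aqp4 stood at percentile 2.68 of all entries. The mean of the 2 was 8.45 to 8.47 over APP23 4xLPS libraries and 8.42 to 8.44 over APP23 1xLPS libraries. The part of astrocytes in this result was not tested. Nceh1 also rose in wildtype mice, by 0.070 after 1xLPS (adjusted p = 0.0483, 0.186 with 24) and by 0.092 after 4xLPS (adjusted p = 0.0152, 0.0853 with 24), and its difference of responses to 1xLPS was -0.16 (adjusted p = 0.0119, 0.117 with 24).

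In wildtype mice 4xLPS was also followed by lower Osbp, an oxysterol-binding transfer protein (-0.093, adjusted p = 0.0166 in limma, 0.0899 with 24), and Gramd1b, a sterol transporter (-0.11, adjusted p = 0.0245, 0.107 with 24). After 1xLPS the lysosomal acid lipase Lipa (-0.035, adjusted p = 0.0376, 0.173 with 24) and the lipid droplet coat Plin2 (-0.048, adjusted p = 0.0200, 0.128 with 24) fell. In APP23 against wildtype 1xLPS libraries the efflux transporter Abcg1 (0.11, adjusted p = 0.00509, 0.0599 with 24), the lipoprotein receptor Lrp1 (0.062, adjusted p = 0.00668, 0.0706 with 24) and the lysosomal sterol carrier Npc2 (0.035, adjusted p = 0.0345, 0.177 with 24) were higher and Nceh1 was lower (-0.11, adjusted p = 0.0130, 0.0947 with 24). In the same contrast the border macrophage marker Mrc1 was called (-0.21, adjusted p = 0.0210, 0.123 with 24), 1 of 5 measured, against 4.34% of all entries. Of the 5 differences 1 was above 0. The mean of the 5 was 8.01 to 8.10 over APP23 1xLPS libraries and 8.10 to 8.22 over wildtype 1xLPS libraries. The part of border macrophages in these results was not tested. Npc2 was also called in the difference of responses to 1xLPS (0.048, adjusted p = 0.0418, 0.205 with 24). With vehicle, the efflux transporter Abca1 was higher in APP23 (0.060, adjusted p = 0.0103, 0.0616 with 24).

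Among the fatty acid genes of the SREBP1 branch, the synthase Fasn was higher in APP23 than in wildtype PBS libraries (0.17, adjusted p = 0.00647 in limma, 0.0480 with 24) and rose in wildtype mice after 1xLPS (0.12, adjusted p = 0.0347, 0.151 with 24). Scd2, a stearoyl-CoA desaturase, fell after 1xLPS in wildtype mice (-0.058, adjusted p = 0.0317, 0.145 with 24), was higher in APP23 than in wildtype 1xLPS libraries (0.10, adjusted p = 0.00261, 0.0426 with 24) and was lower in APP23 4xLPS than in APP23 1xLPS libraries (-0.087, adjusted p = 0.0484, 0.260 with 24). Mid1ip1, a regulator of acetyl-CoA carboxylase, fell in wildtype mice after 1xLPS (-0.048, adjusted p = 0.0101, 0.0906 with 24) and after 4xLPS (-0.044, adjusted p = 0.0230, 0.111 with 24).

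In the isoprenoid branch, Fntb, the farnesyltransferase beta subunit, fell after 1xLPS in wildtype mice (-0.060, adjusted p = 0.0346, 0.157 with 24), was higher in APP23 than in wildtype 1xLPS libraries (0.092, adjusted p = 0.00816, 0.0783 with 24) and was called in the difference of responses (0.097, adjusted p = 0.0454, 0.207 with 24).

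Over all 67 measured pathway genes of the 80 listed, 9 were called in limma in wildtype 1xLPS against PBS, 8 in wildtype 4xLPS against PBS, 8 in APP23 PBS against wildtype PBS and 7 in APP23 1xLPS against wildtype 1xLPS. These are 13.4%, 11.9%, 11.9% and 10.4% of the 67, where 6.05%, 8.95%, 9.62% and 4.34% of all entries were called in the same contrasts. The difference of responses had 4 calls for 1xLPS, 5.97% of the 67 against 3.39% of all entries. It had 3, the genes named above, for 4xLPS, which is 4.48% of the 67 against 5.30% of all entries. In APP23 4xLPS against 1xLPS 2 were called, 2.99% against 1.48%. Of all these calls, those of Insig2 and Fasn between genotypes with PBS and that of Scd2 between genotypes with 1xLPS held with 24 degrees of freedom. The remaining 4 contrasts had 0, with 8 to 13 at an unadjusted p under 0.05.

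These counts shifted when 1 library was left out. The 9 calls in wildtype 1xLPS against PBS became 4 to 10, moving by over 1.5 times without wildtype 1xLPS replicate 1, 2, 4 or 7 or wildtype PBS replicate 1, 3, 5 or 6. The 8 calls in wildtype 4xLPS against PBS became 5 to 9, moving that far without wildtype 4xLPS replicate 2. The 8 calls in APP23 PBS against wildtype PBS became 3 to 9, moving that far without APP23 PBS replicate 4 or 6 or wildtype PBS replicate 5. In APP23 1xLPS against wildtype 1xLPS the 7 became 5 to 8, and in APP23 4xLPS against 1xLPS the 2 became 0 to 3, moving that far without any 1 of 27 libraries. The 4 calls on the difference of responses to 1xLPS became 1 to 5, moving that far without APP23 PBS replicate 1 or 6, APP23 1xLPS replicate 1, 2 or 4, wildtype PBS replicate 3 or 8, or wildtype 1xLPS replicate 5 or 7, and the 3 for 4xLPS became 2 to 4. In 3 of the 4 contrasts with 0 calls the count became 0 to 1, and in APP23 4xLPS against PBS it was 0 each time.

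The counts over all entries, which give the background shares, also shifted. Within APP23 mice the 78 entries called in 1xLPS against PBS became 23 to 94, the 162 in 4xLPS against 1xLPS became 49 to 174, and the 27 in 4xLPS against PBS became 2 (without APP23 PBS replicate 6) to 62 (without APP23 PBS replicate 3). Within wildtype mice the 660 in 1xLPS against PBS became 453 to 671, the 977 in 4xLPS against PBS became 634 to 1005, and the 72 in 4xLPS against 1xLPS became 26 to 91. Between genotypes the 1050 with PBS became 808 to 1082, the 474 with 1xLPS became 238 to 508 and the 171 with 4xLPS became 53 to 182. For the differences of responses the 370 for 1xLPS became 222 to 391 and the 579 for 4xLPS became 365 to 612. Besides the 27, which moved by over 1.5 times without any 1 of 27 libraries, counts moved that far without these. Within APP23 mice they were APP23 PBS replicate 1, 4 or 6 or 1xLPS replicate 1, 2, 3 or 4 for the 78, and 1xLPS replicate 1, 2, 3 or 4 or 4xLPS replicate 1, 2 or 3 for the 162. Within wildtype mice they were 4xLPS replicate 6 for the 977, and 1xLPS replicate 4 or 7 or 4xLPS replicate 1 or 6 for the 72. Between genotypes they were APP23 1xLPS replicate 1, 2 or 4 for the 474, and APP23 4xLPS replicate 2, 3 or 4 or wildtype 4xLPS replicate 1, 3 or 6 for the 171. For the differences of responses they were APP23 1xLPS replicate 1 or 4 for the 370 and APP23 4xLPS replicate 3 for the 579.

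Across the 39 libraries Hmgcs1 and Srebf2 varied together. Pearson's r was 0.556 (permutation test, adjusted p = 0.00156 over the 6 pairs of genes; unadjusted p = 0.000260) and Spearman's rho 0.501 (permutation test, adjusted p = 0.00822; unadjusted p = 0.00137). Without the 2 libraries farthest from the median of Hmgcs1, r was 0.459. Among deviations from the group means r was 0.358 (permutation test, adjusted p = 0.0641). Within single groups of 6 or more libraries r was 0.70 in wildtype PBS, 0.24 in wildtype 1xLPS, 0.31 in wildtype 4xLPS and 0.44 in APP23 PBS. The correlation stood at the 99.6th percentile of those of Hmgcs1 with all entries. Libraries share the authors' correction, so these values are a description.

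For Sqle the pooled r was 0.311 with Hmgcs1 (permutation test, adjusted p = 0.164; unadjusted p = 0.0547; rho 0.357, adjusted p = 0.0819, unadjusted p = 0.0273) and 0.210 with Srebf2 (permutation test, adjusted p = 0.295; unadjusted p = 0.197; rho 0.194, adjusted p = 0.352). Among deviations from the group means these were -0.0072 and -0.045. Within single groups r with Hmgcs1 had both signs, at 0.64 in APP23 PBS, -0.37 in wildtype PBS, -0.095 in wildtype 1xLPS and 0.48 in wildtype 4xLPS. With Srebf2 it was 0.13 in APP23 PBS, -0.36 in wildtype PBS, -0.014 in wildtype 1xLPS and 0.037 in wildtype 4xLPS. Srebf2 and Insig1 had r = -0.239 (permutation test, adjusted p = 0.287; unadjusted p = 0.144; rho -0.198, adjusted p = 0.352), with -0.81 in wildtype PBS and -0.65 in wildtype 4xLPS but 0.51 in APP23 PBS. Insig1 had r = -0.165 with Hmgcs1 (permutation test, adjusted p = 0.377; rho -0.148) and 0.042 with Sqle (permutation test, adjusted p = 0.801; rho 0.082).

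**Figure D4:**
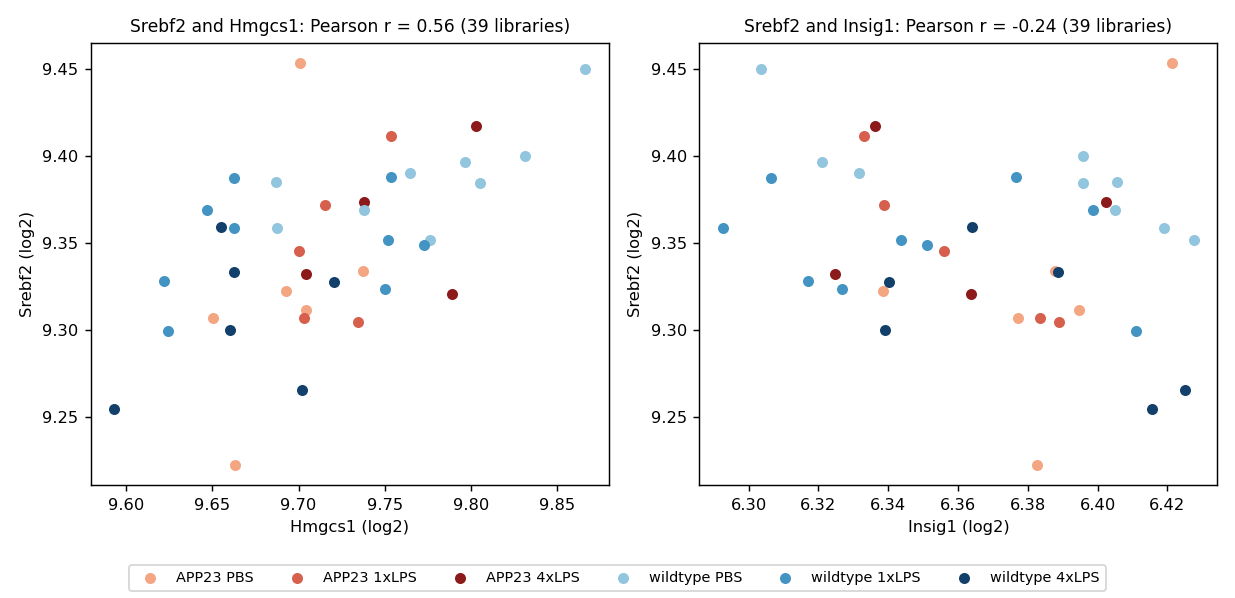
Srebf2 (vertical axis, log2) against Hmgcs1 (left, log2) and against Insig1 (right, log2) in the 39 libraries, coloured by group. Srebf2 and Hmgcs1 have r = 0.556 and Srebf2 and Insig1 r = -0.239; the wildtype PBS library at the top right of the left panel is highest for Hmgcs1, at 9.87, with Srebf2 at 9.45.

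The genes whose values over the 39 libraries were most like those of each gene, by Pearson's r, were not on the pathway lists. For Hmgcs1 these were Fundc1 (0.727), Slc35a4 (0.715), Aldh3a2 (0.711) and Zbtb38 (0.687), with Slc30a5 (-0.793) and Glb1l (-0.693) the most opposite. For Sqle they were Myo10 (0.664), Ngly1 (0.657), Rrn3 (0.643) and Zfp607b (0.635), and Ier5 (-0.655) and Cables2 (-0.633) on the other side. For Srebf2 they were Acad9 (0.717), Pds5a (0.683), Cd27 (0.639) and Zfp560 (0.633), against Tmem87a (-0.676) and Ralgapa2 (-0.663). Insig1 was closest to Carns1 (0.653), Sall1 (0.587), Pck2 (0.557) and Serhl (0.556) and most opposite to Zfp729b (-0.658) and Kitl (-0.622).

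In the authors' deposited table of co-expression modules, which covers 13624 genes in 9 named modules, the 4 genes did not share 1 module. That table places Hmgcs1 in the yellow module (correlation with it 0.428) and Sqle and Srebf2 in the black module (0.027 and 0.352), while Insig1 had none. The correlation largest in size was with the pink module for Hmgcs1 (-0.576), Sqle (-0.422) and Insig1 (-0.276). For Srebf2 it was with the grey group of genes without a module (0.373). The authors' deposited table gives correlations of Hmgcs1, Sqle, Srebf2 and Insig1 with its 1xLPS trait of 0.023, 0.116, 0.0096 and -0.025.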

How the data were processed

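Per the labels, RNA from sorted microglia (3 ng) was amplified with a Smart-seq kit and 1 ng of cDNA made into Nextera XT libraries. Genotypes were pooled for sequencing, and the labels assign no library to a lane. Build mm10 and the tools STAR, FastQC, HOMER, limma and DESeq2 are listed in the submitters' processing notes without their roles. The deposited expression values are log2 as read here, normalized, log-transformed and, per the sheet name, corrected by surrogate variable analysis by the authors. The sources used here state neither the log base nor filters nor the annotation. If the base is another one, all differences scale alike. The deposited co-expression table holds score columns, per the file headers correlations of genes with modules and a trait, their unadjusted p-values by the authors, and a module name. Only the correlations and names of that table are printed.

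In limma 3.58.1 (R 4.3.3) each entry was fitted with 6 group means over the 39 libraries, empirical Bayes with a mean-variance trend, and 11 contrasts, with Benjamini-Hochberg adjustment over 10915 entries of each contrast. No pseudocount or low-value filter was used. A second fit added the 9 directions without residual variance as covariates, leaving 24 degrees of freedom. The fit was tested on simulated data. All adjusted p-values come from limma, apart from those of correlations, which come from 100000 two-sided permutations adjusted over 6 pairs.

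The genes, the 6 pathway lists (80 genes) and the 8 marker lists were chosen with earlier results of these data known. Named were the 4 genes in every contrast, up to 3 called genes of each list in each contrast by smallest p, the control genes Srebf1, Scap, Insig2 and Mylip, and per gene the 4 most and 2 least similar genes. Some other genes under this rule are not reported here. One table column matched no sample label, which makes 1 column not used. There were 16 symbols turned into dates, which were kept as entries and not named. Promoter and gene positions count from 1. Drawing used Python 3.11.15 and matplotlib 3.10.9.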

Additional observations from a re-analysis of the deposited data

Results flagged for a closer look

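The response to 4xLPS against PBS differed between APP23 and wildtype mice, by the interaction test in limma, for Hmgcs1 (0.17, adjusted p = 0.0109), Sqle (0.14, adjusted p = 0.0183) and Srebf2 (0.12, adjusted p = 0.0475). None passed with 24 residual degrees of freedom.

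Within wildtype PBS, replicate 7 had the highest Srebf2, 9.45, with a gap to the next library of 0.510 of the whole range of the group, above Dixon's 95% critical value for 9 libraries. Its Hmgcs1, 9.87, was also the highest of the group. In all 24 sets of 1 gene in 1 group were examined in this way, and chance marks about 1 in 20.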

How the results depend on the processing

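With the 9 variance-free directions as covariates, estimates were the same and these calls were lost: Hmgcs1 in wildtype 1xLPS against PBS (-0.078), wildtype 4xLPS against PBS (-0.11), APP23 PBS against wildtype PBS (-0.081) and the 4xLPS interaction (0.17), Srebf2 in wildtype 4xLPS against PBS (-0.080) and the 4xLPS interaction (0.12), Sqle in the 4xLPS interaction (0.14), and the F test of Hmgcs1 (F = 3.76). With only the groups of the contrast, the calls lost were Hmgcs1 in wildtype 1xLPS against PBS (-0.078) and in APP23 PBS against wildtype PBS (-0.081), and Srebf2 in the 4xLPS interaction (0.12). Centring libraries on their median turned the uncalled Insig1 difference of wildtype 4xLPS from PBS to -0.0019 and gave Sqle an F of 3.61 that passed (adjusted p = 0.0467 in limma). Among deviations from group means, the correlation of Hmgcs1 with Sqle was -0.0072, of Sqle with Srebf2 -0.045 and of Hmgcs1 with Srebf2 0.358. The low-level filter left out Sqle and Insig1, so it gave no value for them. The causes were not tested.

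The replicate block lost Hmgcs1 in APP23 PBS against wildtype PBS (-0.066) and turned the uncalled Srebf2 difference between APP23 and wildtype 1xLPS to 0.0024, and changed no other call on the 4 genes. The numbers did not pair libraries: of 79 pairs with the same number 17 had residual correlations over 0.1 (mean 0.0115), and 3 of 39 libraries correlated best with their own number. The block moved entries called to 34 (72 without it) in wildtype 4xLPS against 1xLPS, 3 (27) in APP23 4xLPS against PBS and 104 (171) in APP23 against wildtype 4xLPS, and pathway genes to 1 (0), 1 (2) and 4 (8) in APP23 1xLPS against PBS, APP23 4xLPS against 1xLPS and between genotypes with PBS.

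Leaving out 1 library at a time gave, for Hmgcs1, -0.089 to -0.067 in wildtype 1xLPS against PBS and -0.092 to -0.069 in APP23 against wildtype PBS. For Srebf2 it gave -0.091 to -0.070 in wildtype 4xLPS against PBS, -0.088 to -0.041 in APP23 against wildtype PBS, 0.0955 to 0.14 in the 4xLPS interaction, -0.0059 to 0.029 in APP23 4xLPS against 1xLPS, -0.018 to 0.0083 in APP23 against wildtype 1xLPS and F values of 2.44 to 5.41, called without APP23 PBS replicate 5 (adjusted p = 0.0114 in limma). For Sqle it gave 0.12 to 0.16 in the 4xLPS interaction and F values of 2.67 to 4.15. The Sqle F test was called without APP23 1xLPS replicate 4, wildtype 1xLPS replicate 2 or 6, APP23 4xLPS replicate 3, wildtype 4xLPS replicate 4 or APP23 PBS replicate 4 (adjusted p as low as 0.0308). For Insig1 it gave -0.0089 to 0.0084 in wildtype 4xLPS against PBS, -0.019 to 0.0074 in APP23 4xLPS against 1xLPS, -0.0039 to 0.014 in APP23 against wildtype PBS and -0.0015 to 0.017 in the 1xLPS interaction.

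With 24 degrees of freedom entries called were 48 (660 with 33), 165 (977) and 2 (72) for wildtype 1xLPS against PBS, 4xLPS against PBS and 4xLPS against 1xLPS, 0 (78), 0 (27) and 0 (162) for the same in APP23, 274 (1050), 36 (474) and 0 (171) between genotypes with PBS, 1xLPS and 4xLPS, and 4 (370) and 57 (579) for the interactions. Pathway genes were 0 (9), 0 (8), 0 (2), 2 (8), 1 (7), 0 (4) and 0 (3) in the 7 contrasts that had any. With only the contrast's groups, entries called were 32 (72) in wildtype 4xLPS against 1xLPS, 27 (78), 0 (27) and 2 (162) in the APP23 comparisons and 0 (171) between genotypes with 4xLPS, and pathway genes 4 (9) in wildtype 1xLPS against PBS and 0 (2) in APP23 4xLPS against 1xLPS. Without the trend that last count was 1, with the low-level filter pathway genes in the 1xLPS interaction were 2 (4), and centring gave 17 entries (27) in APP23 4xLPS against PBS. Centring moved the share of calls that were higher to 45.0% (55.3% before) in wildtype 1xLPS against PBS, 71.8% (57.7%) in APP23 1xLPS against PBS, 43.0% (53.7%) in APP23 4xLPS against 1xLPS, 45.6% (55.9%) in APP23 against wildtype PBS and 55.7% (43.2%) in the 1xLPS interaction.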
